A study of Oryza sativa Japonica Group with 12 samples.

Results

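Late crown root (CR) primordia of rice were compared with the stem cortex around them, on 3 arrays of each tissue out of the 12 arrays of the series, over 24160 genes. The late primordia form the ring nearest the base of the stem, and the 6 other arrays hold the early and intermediate rings, 3 arrays each. All plants were *Oryza sativa* ssp. Japonica cv. Taichung 65, a cultivated line for which no transgene and no treatment is named, taken 8 days after sowing. Tissue was fixed, embedded, cut out by laser microdissection and extracted from 2 pooled stem bases per repetition, and the cortex came from the sections that held the primordia. Cortex, early, intermediate and late tissue of 1 repetition number therefore came from the same plants, and each group rests on 3 repetitions. The cortex was defined by its place in the section, so it can hold more than 1 cell type. A gene is said to rise or to fall at an adjusted p below 0.05 (limma) together with a change of 1.5-fold or more, and all values are log2 signals of a gene's probe set unless another scale is named.

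Crown roots are roots that grow out of the stem and make up most of the root system of cereals. Each begins when cells of the inner ground tissue of the stem divide again, and the dome they form is organized into a root apical meristem with a cap, a stele and ground tissue layers before it breaks through the cortex. Transcription factors of the PLETHORA (PLT), SCARECROW (SCR) and SHORT-ROOT (SHR) types are known from Arabidopsis to position and keep the stem cells of root meristems, while the stem cortex is a differentiated parenchyma of large vacuolate cells.

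In late primordia 388 genes rose (1.61% of those tested) and 397 fell (1.64%), together 3.25%. Genes that fell included some of photosynthesis, lipid transfer proteins, cell wall proteins and transcription factors such as *OsTCP7* (TEOSINTE BRANCHED1/CYCLOIDEA/PCF family), *OsLBD3-6* and *OSH1*. Genes that rose included some of ribosomal proteins, RNA and DNA machinery and chromatin proteins, and *OsPLT1* and *GRF6*. Not each of these groups stood out. In the study's gene catalogue, the share of cell wall genes that fell was below that of all genes described there. The shares of RNA genes and of DNA and chromatin structure genes that rose were near the share of rises there. How many ribosomal protein genes rose changed with the normalization. The median size of a rise was 1.19 and of a fall 1.04 on the log2 scale, with 46 rises and 30 falls of at least 4-fold. A symbol in the annotation was held by 42 of the rises, 56 of the falls and 2701 of all 24160 genes. Most of the changed genes, like most genes tested, are therefore known by an identifier. At an unadjusted p under 0.01 with the same fold, the threshold of the study's methods, 1067 genes were higher (4.42%) and 822 lower (3.4%).

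Rises and falls lay at different levels of signal. The median mean signal over the 12 arrays was 5.44 for the genes that rose, 3.23 for those that fell and 2.91 for all genes, and 147 of the rises but 10 of the falls had a mean above 6. Bright values were scarcer on cortex replicates 2 and 3, where the 98th percentile stood at 7.48 and 7.54, than on cortex replicate 1 (8.46) or the late arrays (8.74 to 9.06). For the 931 bright genes, those whose mean exceeds 6, the late mean differed in median by 0.80 on the log2 scale from the cortex mean, 0.32 from cortex replicate 1, 1.13 from replicate 2 and 0.94 from replicate 3. After the values were quantile normalized again, which gives all arrays the same distribution, the median difference of these bright genes was 0.06, and 157 genes rose and 324 fell. The share of rises among the calls was then 32.6%, against 49.4% with the deposited values. What part the lower bright values of 2 cortex arrays have in the rises was not tested, so the values after quantile normalization are given below beside the rises that lose their call under it.

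**Figure D1:**
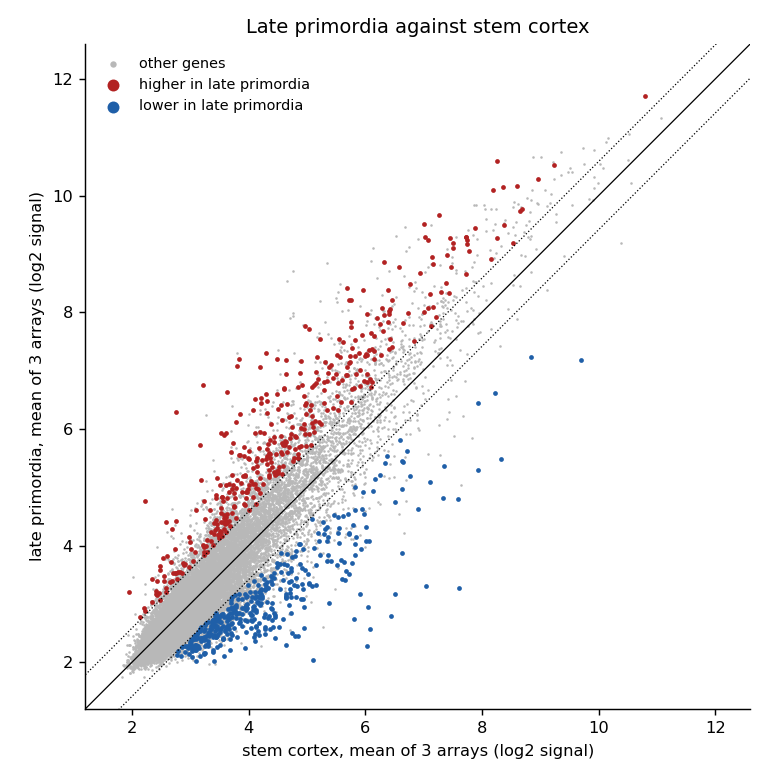
Mean log2 signal of each gene in late primordia (y axis, 3 arrays) against stem cortex (x axis, 3 arrays), with the line of equality and dotted lines at 1.5-fold. The 388 genes that rose reach far into the bright range, with 147 above a mean signal of 6, while 10 of the 397 genes that fell lie there.

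All 785 genes called had no overlap between the tissues: each late array lay beyond each cortex array. The calls were made on these same arrays, so much of this separation, and of the gaps below, was built into the choice of genes. Over all genes tested, 13.2% had every late array above every cortex array and 14.2% had every late array below. A stricter view is the gap between the closest late and cortex arrays. This gap was at least 1.5-fold for 130 of the 388 rises and 175 of the 397 falls, where 0.683% and 0.849% of all genes had such a gap in the 2 directions. It was at least 2-fold for 25 rises and 64 falls, and for 25 and 67 of all 24160 genes in the 2 directions. The median gap was 0.48 for rises and 0.55 for falls on the log2 scale. The largest gaps were those of LOC9272028 among the falls (3.18) and of LOC4324342 among the rises (2.82).

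The cortex arrays did not bear equally on the calls. Cortex replicate 1 was the cortex array nearest to late primordia for most rises: it lay above both other cortex arrays in 316 of 388 rises, in 64 of 397 falls and in 7412 of all 24160 genes. The late mean stood at least 1.5-fold above cortex replicate 1 for 296 rises, above replicate 2 for 379 and above replicate 3 for 372. It stood that far above each of the 3 for 280 rises, and below each of the 3 for 269 of the 397 falls. The share of all genes with such distances was not counted, and these arrays also enter the calls. Set against cortex replicate 1, the median distance of the late mean was 0.75 for rises and 0.83 for falls.

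**Figure D2:**
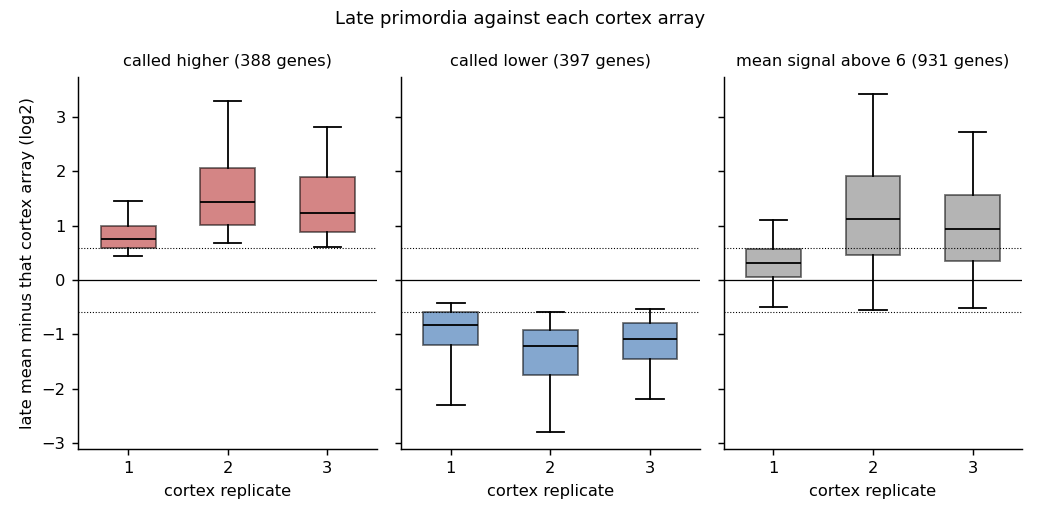
Log2 difference of the late mean from each of the 3 cortex arrays (x axis) for the genes that rose, the genes that fell and all genes with a mean signal above 6. Boxes span the quartiles with the median as a line, whiskers run from the 5th to the 95th percentile, and dotted lines mark 1.5-fold. The medians against cortex replicate 1 (0.75 for rises and 0.32 for bright genes) are below those against replicates 2 and 3.

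Of 27 photosynthesis genes with a symbol, 7 fell (25.9%, against 1.64% of all genes), 0 rose and the rest were not called. Their median log2 change was -0.46 against -0.02 for all genes, and after quantile normalization 4 fell. *PSBW* (LOC4327150), which encodes a small subunit of photosystem II, had signals of 7.84, 8.38 and 7.58 on cortex replicates 1 to 3 and of 4.81, 5.45 and 5.63 on the late arrays. The difference was -2.64 (standard error 0.29, adjusted p = 0.00502), and the closest arrays of the tissues were 1.95 apart. Among the chlorophyll a/b binding proteins, which hold the pigments that harvest light, *CAB2R* (LOC4324599) went from 5.16, 6.12 and 4.03 in cortex to 1.97, 2.12 and 2.05 in late primordia. *RCABP69* (LOC4343583) went from 4.93, 4.26 and 4.03 to 2.73, 2.74 and 2.72. The late arrays of both genes lay close together near the floor of the signal scale, whereas the cortex arrays were all higher and more widely spread. *CAB1R* (LOC4346803) fell by 2.35, *PETE* (LOC4339833), the plastocyanin gene, by 0.85, *GLK1* (LOC4340977), a regulator of chloroplast development, by 0.71 and *SGR* (LOC4347672), named for the stay-green trait, by 0.77. The calls of *GLK1* and *SGR* ended with the replicate block (adjusted p = 0.0549 and 0.0657), and those of *CAB1R*, *GLK1* and *SGR* after quantile normalization (adjusted p = 0.0535, 0.056 and 0.0564).

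Genes without a symbol widen this set. LOC4334300, described as photosystem I subunit F, had 4.86, 5.25 and 4.42 in cortex and 2.66, 2.20 and 2.49 in late primordia, a log2 change of -2.39 (adjusted p = 0.00502). LOC4352085, described as subunit L of the same photosystem, had 4.55, 4.79 and 4.73 against 2.60, 3.04 and 3.27 (-1.72, adjusted p = 0.00309). The cortex arrays of both genes were all more than 1 log2 unit above the late arrays. LOC4351694 (subunit N), LOC4336028 (the antenna protein LHCB6), LOC4352021 (a small subunit of Rubisco, the enzyme that fixes carbon dioxide) and LOC4332603 (CP12, a regulator of the Calvin cycle) fell by 1.61, 1.55, 1.27 and 1.09. The call of the Rubisco gene ended with the replicate block (adjusted p = 0.0581) and after quantile normalization (adjusted p = 0.0635). Of 13 photosynthesis genes described in the study's gene catalogue, 8 fell and 0 rose (median -1.09). The catalogue was drawn up from genes selected on these same arrays, so its counts are not independent evidence. Among the 1071 genes with such a description, 166 rose (15.5%) and 156 fell (14.6%) by the present test. The green parenchyma markers, 9 genes mainly of light harvesting and Rubisco, summed to a linear signal of 284 to 592 in cortex and 68.9 to 97.9 in late primordia. *PSBW* was the brightest of them and weighs most in the sum. Of the 9, 4 fell, and the rest, with the Rubisco genes *RBCS1* and *OsrbcS* among them, were not called. With bulk tissue, fewer cells of a type and less RNA per cell cannot be told apart.

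Lipid transfer proteins are small secreted proteins that bind lipids and are common in the outer layers of plant organs. Of 7 in the catalogue 6 fell (85.7%, against 14.6% of all described genes) and 0 rose (median -1.5). The catalogue holds genes selected on these same arrays, so this count does not speak for the whole family. LOC4349330 went from 6.94, 7.35 and 3.81 in cortex to 2.30, 2.43 and 2.08 (-3.76, adjusted p = 0.0291), and LOC4349329 from 6.32, 7.01 and 4.40 to 3.13, 2.80 and 3.56 (-2.74, adjusted p = 0.03). Cortex replicate 3 was the lowest cortex array for both. LOC4349331 fell by 0.96, LOC4331303 by 1.99, and LOC4330226 and LOC4330227 by 1.5 and 0.75. The first 3 carry consecutive identifiers, as do the last 2, and whether their probes tell such related genes apart was not tested. None of the 6 lipid transfer protein genes with a symbol was called, and their median was -0.26.

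Of 19 cell wall genes in the catalogue 2 fell (10.5%, against 14.6% of all described genes) and 1 rose, with a median of 0.10. *XTH8* (LOC4345019), one of the enzymes that cut and rejoin xyloglucan, had 7.08, 7.70 and 5.95 in cortex and 4.69, 4.58 and 4.59 in late primordia (-2.29, standard error 0.40, adjusted p = 0.0206). Among 46 expansins, which loosen the wall, *EXPA7* (LOC4334606) and *EXPA2* (LOC4327568) fell (4.3%, against 1.64% of all genes) and 0 rose. *EXPA7* had 6.35, 6.05 and 6.39 in cortex and 5.27, 5.12 and 5.22 in late primordia (-1.06, adjusted p = 0.0189). The arrays of each tissue lay close together for this gene, and the gap between them was 0.78. *EXPA2* fell by 0.99, a call that ended with the replicate block (adjusted p = 0.0519). LOC4326326, described as a fasciclin-like arabinogalactan protein, went from 7.28, 7.97 and 7.54 to 4.25, 5.24 and 4.87 (-2.81, adjusted p = 0.00545).

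Xylan, the main hemicellulose of grass walls, had 4 of its 30 listed genes falling (13.3%, against 1.64% of all genes) and 1 rising (3.3%). The falls were *TBL6* (LOC4334574, -1.60), a member of the family that acetylates wall polysaccharides, *IRX9* (LOC4344394, -1.20), a glycosyltransferase of the xylan backbone, *AT10* (LOC4341427, -1.19), which adds p-coumarate to arabinoxylan, and *GT7* (LOC4330569, -0.97). *TBL6* had 4.41, 5.24 and 4.50 in cortex and 2.87, 3.36 and 3.11 in late primordia. *OsUAM3* (LOC4343849), an arabinose mutase, rose by 0.95, a call that ended with the replicate block (adjusted p = 0.0507) and after quantile normalization (adjusted p = 0.0744), as did those of *AT10* and *GT7* after quantile normalization (adjusted p = 0.0553 and 0.0558). LOC4351745, which carries a DUF579 domain, a domain found in xylan-modifying enzymes, fell by 2.35 (adjusted p = 0.0106). Of 34 cellulose synthase superfamily genes 0 were called, with *CSLF6* (LOC4344719) nearest to it (-0.66, adjusted p = 0.0624). The 32 markers of secondary-walled cells summed to 219 to 324 in cortex and 203 to 212 in late primordia, with 0 called.

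Of 114 genes of transcription regulation in the catalogue 24 rose (21.1%) and 16 fell (14.0%), with a median of 0.48. Over all described genes 15.5% rose and 14.6% fell, so the share of falls was near that of the catalogue. After quantile normalization 16 of the 114 rose and 13 fell. The falls are described first. *OsTCP7* (LOC4330080) had the largest fall of all genes, from 7.53, 6.95 and 8.34 in cortex to 2.55, 4.12 and 3.16 in late primordia (-4.33, standard error 0.55, adjusted p = 0.0072). Its lowest cortex array was 2.83 above its highest late array. TCP proteins control cell proliferation and organ growth in plants. The name of this gene is likely but not sure, since the study's table gives another identifier than the catalogue entry it was matched through, and the same holds for *OsPLT1*, *OsPLT3*, *OsMYBS60* and *ARF5*. *OsLBD3-6* (LOC4333627), a LATERAL ORGAN BOUNDARIES gene, had 6.18, 6.05 and 5.81 in cortex and 4.24, 4.24 and 3.76 in late primordia (-1.93, standard error 0.21, adjusted p = 0.00448). Both tissues were tight for this gene and 1.57 apart. LOC4327234, described as a NAC factor, fell by 2.18 (adjusted p = 0.00309).

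Homeobox genes of the KNOX class keep shoot meristem cells undifferentiated. Of 19 WOX and KNOX genes 3 fell, all KNOX (15.8%, against 1.64% of all genes), and 0 rose. *OSH1* (LOC4333973) had 3.82, 4.43 and 4.94 in cortex and 3.05, 3.09 and 2.57 in late primordia (-1.49, adjusted p = 0.0219). *OSH3* (LOC4333975) and *OSH6* (LOC4325788) fell by 0.82 and 0.78, at signals that stayed under 4 on all 6 arrays. *OSH15* (LOC4342320) was not called, with a log2 change of -0.11 (standard error 0.14). Among 46 homeodomain-leucine zipper and zinc finger homeobox genes 4 fell (8.7%) and 0 rose. They were *MIF1* (LOC4349655, -1.51) and *MIF3* (LOC4347053, -1.48) of the mini zinc fingers and *Hox16* (LOC4330610, -1.47) and *Hox13* (LOC4331890, -1.01) of the leucine zipper class. *MIF3* had 5.21, 5.21 and 5.03 in cortex and 3.92, 3.65 and 3.44 in late primordia (adjusted p = 0.00936).

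In the hormone lists most called genes were of auxin, and these fell. Auxin response factors bind the promoters of auxin-regulated genes. Of 19 such factors 3 fell (15.8%, against 1.64% of all genes) and 0 rose, with a median of -0.03. *ARF5* (LOC4328265) went from 4.66, 3.86 and 4.02 in cortex to 2.79, 2.27 and 2.33 in late primordia (-1.71, adjusted p = 0.0198). *ARF13* (LOC9269399, -0.86) and *ARF24* (LOC4352211, -0.69) were dimmer, with cortex signals under 3.4. *OsGH3-4* (LOC4339234), an enzyme that conjugates auxin to amino acids, was the only called gene of 27 in auxin transport and conjugation (3.7%). It fell by 0.68, a call lost with the replicate block (adjusted p = 0.0538). LOC4349885, described as an auxin influx carrier of the LAX family, fell by 0.96, and LOC4329252 and LOC9268702, described as small auxin-induced genes, by 1.22 and 1.11. None of 28 Aux/IAA repressor genes was called. The closest were *IAA20* (LOC4327919, -0.56, adjusted p = 0.0393) and *IAA31* (LOC4352722, 0.58, adjusted p = 0.0493), whose fold changes stayed under 1.5.

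Fewer genes of other hormones changed. *CKX1* (LOC4325668), which breaks down cytokinin, fell by 0.60, a call lost with the replicate block (adjusted p = 0.0545) and after quantile normalization (adjusted p = 0.0617). LOC4331245, described as a type-A cytokinin response regulator, fell by 1.30 and LOC4330873, described as an ethylene-forming oxidase, by 1.35. The call of the latter ended after quantile normalization (adjusted p = 0.0553). *BZR2* (LOC4327076), a factor of brassinosteroid signalling, was the only called gene of 17 in its list, and it rose from 3.40, 3.08 and 3.17 in cortex to 3.99, 4.11 and 3.91 in late primordia (0.79, adjusted p = 0.0338). Of 19 gibberellin and ethylene genes 0 were called.

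Of 24 transport genes in the catalogue 9 fell (37.5%, against 14.6% of all described genes) and 1 rose, with a median of -0.74, and after quantile normalization 7 fell and 0 rose. Fewer calls fell in the lists of genes with a symbol. Of 27 aquaporins, the water channels, 2 fell (7.4%, against 1.64% of all genes). They were *PIP2-6* (LOC4335226), with 5.87, 6.35 and 6.16 in cortex and 4.81, 5.00 and 4.99 in late primordia (-1.19, adjusted p = 0.009), and *PIP1-1* (LOC4330248, -0.84). The median over the 27 was -0.35. Among 66 genes of metal binding and transport 4 fell (6.1%) and 0 rose. They were *NAS3* (LOC4344361, -3.35), a nicotianamine synthase, the metallothioneins *MT2C* (LOC4337596, -1.53) and *MT2A* (LOC4325218, -0.89) and the copper transporter *COPT1* (LOC4324610, -1.04). *MT2C* had 5.43, 5.92 and 5.81 in cortex and 3.92, 4.02 and 4.63 in late primordia. The calls of *NAS3* and *MT2A* ended after quantile normalization (adjusted p = 0.0533 and 0.0582). Of 20 sugar transporters 1 fell (5.0%), *SWEET14* (LOC4350572, -0.79), a sugar exporter. Of 48 sucrose and starch enzymes 1 fell (2.1%, near the 1.64% of all genes), *OsTPP8* (LOC4340524, -0.91), a trehalose phosphate phosphatase. Both calls were lost with the replicate block (adjusted p = 0.0616 and 0.0645) and after quantile normalization (adjusted p = 0.0705 and 0.054).

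Several of the clearest falls were in genes without a symbol. LOC9272028 had 6.64, 7.41 and 7.07 in cortex and 3.34, 3.46 and 3.09 in late primordia (-3.74, standard error 0.31, adjusted p = 0.00104). LOC4346246 had 6.88, 6.64 and 5.81 against 2.55, 2.64 and 3.20 (-3.64, standard error 0.28, adjusted p = 0.000825), and LOC4345663 had 6.35, 6.03 and 5.04 against 2.69, 2.66 and 2.88 (-3.06, adjusted p = 0.00265). All 3 are on chromosome 8, and each had a gap of over 2 log2 units between the tissues. LOC4343786 and LOC4342447 fell by 3.10 and 2.84. LOC4327219, described as a germin-like protein, fell by 2.76, and *AP25* (LOC4331874), an aspartic protease, by 2.06. A gene with a symbol fell as clearly: *BURP17* (LOC4349896) had 5.65, 6.64 and 5.96 in cortex and 2.86, 2.41 and 2.45 in late primordia. Its log2 change was -3.51 (standard error 0.26, adjusted p = 0.00083), with a gap of 2.79 between the tissues.

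**Figure D3:**
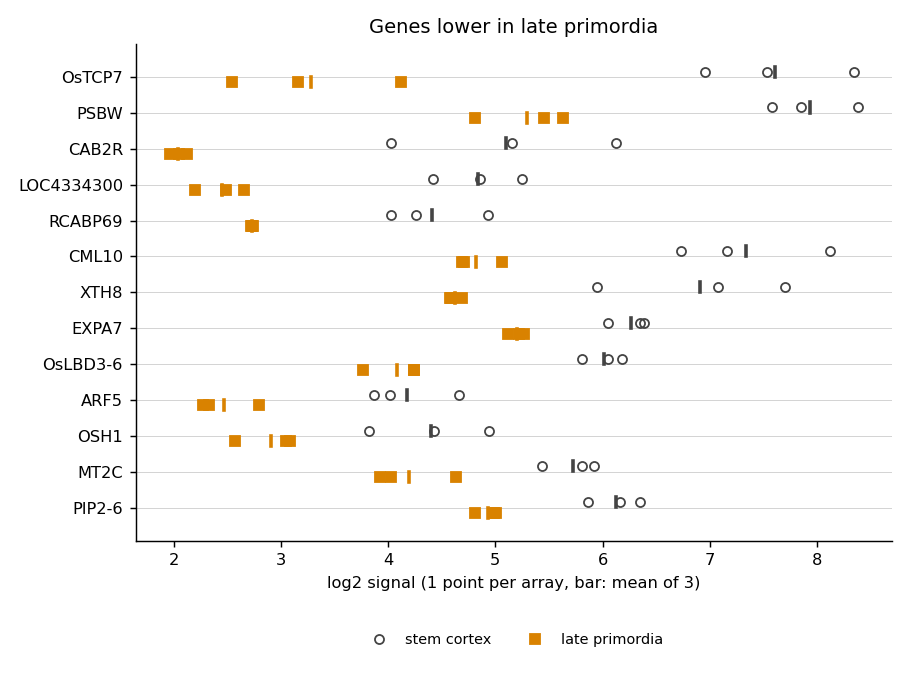
Log2 signal on each cortex array (open circles) and each late array (filled squares) for genes that fell, with bars at the means of 3 arrays. In each of these 13 genes every late array lies below every cortex array, from *OsTCP7* (log2 change -4.33) to *PIP2-6* (-1.19).

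In the catalogue, 32 of 72 ribosomal protein genes rose (44.4%, against 15.5% of all described genes) and 1 fell, with a median of 1.42, and 27 of the 58 cytosolic ones rose. Of 29 ribosomal protein genes with a symbol 7 rose (24.1%, against 1.61% of all genes) and 0 fell (median 0.66). Ribosomal protein genes are bright, with a median mean signal of 7.46 in the catalogue, and 15.8% of all genes with a mean above 6 rose. How many rose changed with the normalization, since quantile normalization gave medians of 0.72 in the catalogue and 0.30 in the genes with a symbol, with 11 of 72 and 0 of 29 rising. Set against cortex replicate 1 the median of the 29 was 0.39.

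*RPL5B* (LOC9271934) had 8.50, 6.11 and 6.61 in cortex and 9.42, 9.11 and 9.16 in late primordia (2.16, standard error 0.47, adjusted p = 0.0409). *SC34* (LOC4350098), described as a 60S subunit protein, had 9.70, 7.46 and 7.60 against 10.84, 10.63 and 10.33 (2.35, adjusted p = 0.0433). In both genes cortex replicate 1 stood about 2 log2 units above the other cortex arrays and within 1 unit of the nearest late array. *RPS27AB* (LOC4337883), which encodes a ribosomal protein fused to ubiquitin, had 7.83, 6.84 and 7.84 against 9.25, 9.05 and 9.00 (1.60, adjusted p = 0.0113), and *RPS26* (LOC4327570) 6.08, 5.30 and 5.80 against 7.36, 7.18 and 6.85 (1.40, adjusted p = 0.0124). Here the cortex arrays were closer together. *QM1* (LOC4337928), *RPS27AA* (LOC4326977) and *RPS4* (LOC4328016) rose by 1.07, 0.66 and 0.64, but after quantile normalization *QM1* and *RPS27AA* changed sign (-0.03 and -0.43) and *RPS4* stood at 0.25. The other 4 lost their calls after quantile normalization as well, with 1.22 for *RPL5B*, 1.35 for *SC34*, 0.53 for *RPS27AB* and 0.74 for *RPS26*. With the replicate block the call of *RPS27AA* alone among the 7 ended (adjusted p = 0.0507).

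Some ribosomal protein genes without a symbol kept their call after quantile normalization. LOC4330425, described as a 60S protein of the L12 type, had 7.72, 7.01 and 6.69 in cortex and 9.14, 8.80 and 8.89 in late primordia, a log2 change of 1.80 (standard error 0.23, adjusted p = 0.00746), and of 0.78 after quantile normalization (adjusted p = 0.0233). LOC4334512, a 40S protein, had 6.69, 5.71 and 5.69 against 8.07, 7.90 and 7.95, with 1.94 before (adjusted p = 0.00936) and 1.21 after (adjusted p = 0.0102). LOC4349791, of the L26 type, had 6.73, 5.75 and 4.57 against 8.98, 8.15 and 8.10 (2.73 and 2.09). The late arrays of these 3 genes were above 7.8 throughout. LOC4351876, sorted in the catalogue with ribosomal proteins of the organelle type, rose by 3.27 from 5.41, 2.95 and 3.06 to 7.47, 7.17 and 6.60. LOC4336856 (L12 type, 2.40) and LOC4333672 (S21 type, 2.30) lost their calls after quantile normalization, where they stood at 1.47 (adjusted p = 0.0906) and 2.00 (adjusted p = 0.071).

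Other genes of translation and of protein turnover rose beside them. *RACK1A* (LOC4324115), a scaffold protein on the ribosome, had 5.55, 4.59 and 4.38 in cortex and 7.36, 6.57 and 6.23 in late primordia (1.88, standard error 0.33, adjusted p = 0.0219). *eIF-4A-1* (LOC4341966), an RNA helicase of translation initiation, rose by 0.82, but by 0.50 after quantile normalization (adjusted p = 0.139). Of 19 proteasome subunits 1 rose (5.3%, against 1.61% of all genes) and 0 fell, *OsPAE1* (LOC4350922, 1.30, adjusted p = 0.0197). LOC4334598 and LOC4351208, described as chaperones of the HSC70 type, rose by 1.75 and 1.44, and by 0.97 and 0.84 after quantile normalization (adjusted p = 0.0894 and 0.0762). LOC4336766, described as a subunit of the mitochondrial import complex, rose by 2.24 and LOC4331370, described as an adaptin of vesicle coats, by 2.15, and both kept their calls after quantile normalization (adjusted p = 0.0463 and 0.0352).

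In the catalogue 8 of 42 RNA processing and binding genes (19.1%) and 5 of 24 DNA synthesis and chromatin structure genes (20.8%) rose and 0 of either fell (medians 0.91 and 0.86). These shares were near the 15.5% of all described genes that rose, and after quantile normalization 2 and 3 rose. LOC4350782, described as the Gar1 protein of the particles that modify ribosomal RNA, rose by 2.07, and LOC4332851, described as NOP56, by 0.81. The latter gene had 3.43, 3.08 and 3.34 in cortex and 4.24, 4.06 and 3.97 in late primordia. LOC4352005, described as a DNA polymerase subunit, had 4.38, 3.10 and 3.60 against 5.75, 5.39 and 5.67 (1.91, adjusted p = 0.0104), and LOC4348965, described as DNA ligase 1, which joins DNA fragments in replication, had 5.11, 4.12 and 3.91 against 6.70, 5.57 and 6.00 (1.71, adjusted p = 0.0381). After quantile normalization the call of the Gar1 gene, LOC4350782, ended (1.80, adjusted p = 0.0627), and the other 3 held (adjusted p from 0.0171 to 0.0413). LOC4325108, described as a cohesin subunit, rose by 1.59, and *MSI1* (LOC4333540), a histone-binding protein, had 6.19, 5.40 and 6.42 in cortex and 7.47, 6.86 and 7.53 in late primordia (1.28, adjusted p = 0.0409). After quantile normalization these stood at 1.03 (adjusted p = 0.085) and 0.55 (adjusted p = 0.336).

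Of 53 cyclins and cyclin-dependent kinases 1 rose (1.9%, near the 1.61% of all genes) and 0 fell, *CDKF-4* (LOC4330434), with 5.68, 5.29 and 5.76 in cortex and 6.52, 6.46 and 6.39 in late primordia (0.88, adjusted p = 0.0189, and 0.29 after quantile normalization with adjusted p = 0.323). Of 32 DNA replication genes with a symbol 1 rose (3.1%), the *MSI1* gene above, and the median was 0.33. The mitotic kinase *CDKB2-1* (LOC4346016) had 6.12, 5.54 and 5.86 in cortex and 7.46, 6.47 and 6.39 in late primordia (0.93, adjusted p = 0.114), with no overlap but a wide spread. The 16 markers of dividing cells summed to 375 to 453 in cortex and 421 to 782 in late primordia, with 0 called. The brightest of them, which weighs most in such a sum, was *OsH2B* (LOC4324500). It had 7.35, 7.91 and 7.98 in cortex and 8.70, 7.72 and 7.62 in late primordia, so the tissues overlapped. Of the cytoskeleton, *OsTUB6* (LOC4338790), a tubulin, rose by 1.37 (0.57 after quantile normalization, adjusted p = 0.0558) and *FH14* (LOC4337546), a formin that links actin and microtubules, by 1.60, while *ADF5* (LOC4332220), an actin depolymerizing factor, fell by 1.48 and *KIN14D* (LOC4328800), a kinesin, by 0.63.

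Few listed transcription factors of meristems and of growth were called higher. *OsPLT1* (LOC4337245), a PLETHORA factor, had 4.99, 3.89 and 4.13 in cortex and 5.80, 5.70 and 5.74 in late primordia (1.41, standard error 0.24, adjusted p = 0.0197). It was the only called gene of 21 in the list of AP2/ERF factors. *GRF6* (LOC4333990), a growth-regulating factor, had 4.59, 3.48 and 3.71 against 5.85, 5.51 and 5.24 (1.61, adjusted p = 0.0189), and was the only called gene of 10 in its family. Both held their calls after quantile normalization (adjusted p = 0.0336 and 0.0217). LOC4327694, described as a zinc finger protein of the MAGPIE type, which in Arabidopsis works with SHR and SCR, had 4.97, 4.50 and 6.06 in cortex and 7.67, 7.09 and 6.93 in late primordia (2.05, adjusted p = 0.0351, and 1.48 after quantile normalization with adjusted p = 0.13).

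C3H and LSD1-like zinc finger genes had 4 rises (6.8%) and 1 fall (1.7%) among 59, against 1.61% and 1.64% of all genes. *LOL2* (LOC4325320) had 5.56, 4.04 and 4.08 in cortex and 6.34, 6.43 and 6.49 in late primordia (1.86, adjusted p = 0.0414), *OsC3H14* (LOC4328599) rose by 1.14, *OsC3H40* (LOC4340263) by 0.99 and *LOL1* (LOC4343203) by 0.65, while *OsC3H37* (LOC4339379) fell by 1.17. All 5 calls were lost after quantile normalization (adjusted p from 0.0532 to 0.24), and all but that of *OsC3H40* also with the replicate block (adjusted p from 0.0519 to 0.0616). Among genes with a SWIB domain, found in chromatin remodelling complexes, LOC4352303 rose from 5.51, 4.57 and 3.85 to 7.96, 7.46 and 6.10 (2.53, adjusted p = 0.0269). LOC4334190, LOC4328187 and LOC4335638 had log2 changes of 1.92, 0.82 and 0.45, none of them called (adjusted p = 0.064, 0.134 and 0.131).

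Among metabolic genes with a symbol, *GLN1-1* (LOC4330649), a cytosolic glutamine synthetase, and *GNA1* (LOC4347432), an acetyltransferase that makes a precursor of protein-bound sugars, rose by 1.43 and 1.54. After quantile normalization both stood at 0.77 and had lost their calls (adjusted p = 0.0977 and 0.13). Calcium sensors and kinases had 3 falls (3.4%) and 1 rise (1.1%) among 89, against 1.64% and 1.61% of all genes. *CAM1* (LOC4324384), a calmodulin, rose by 0.76 with the deposited values, lost its call with the replicate block (adjusted p = 0.0561) and changed sign after quantile normalization (-0.34). *CML29* (LOC4341908) and *CIPK29* (LOC4344285) fell by 0.75 and 0.76, and *CML10* is described below.

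The largest rises were again in genes with little annotation. LOC4326970 had 3.51, 2.81 and 3.31 in cortex and 5.44, 7.46 and 7.33 in late primordia (3.53, standard error 0.62, adjusted p = 0.021). LOC4324342 had 2.82, 3.04 and 2.41 against 6.74, 6.25 and 5.87 (3.53, standard error 0.71, adjusted p = 0.0334). In both genes the cortex arrays were all dim. LOC9272152 had 2.19, 2.21 and 2.27 in cortex and 5.30, 5.27 and 3.70 in late primordia (2.53, adjusted p = 0.009), and LOC9268022 had 3.95, 3.71 and 3.10 against 5.88, 6.13 and 5.69 (2.32, adjusted p = 0.0198). By contrast LOC9266486, described as a disease resistance protein of the nucleotide-binding type, had 5.97, 2.87 and 2.68 in cortex against 7.72, 7.54 and 6.34 (3.36, adjusted p = 0.0391), and LOC4334483 had 6.26, 3.33 and 3.29 against 7.36, 7.25 and 7.29 (3.01, adjusted p = 0.0467). For these last 2 genes cortex replicate 1 was about 3 log2 units above the other cortex arrays. The call of LOC4334483 ended with the replicate block (adjusted p = 0.0551) and both ended after quantile normalization (adjusted p = 0.0645 for LOC4334483 and 0.0555 for LOC9266486).

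**Figure D4:**
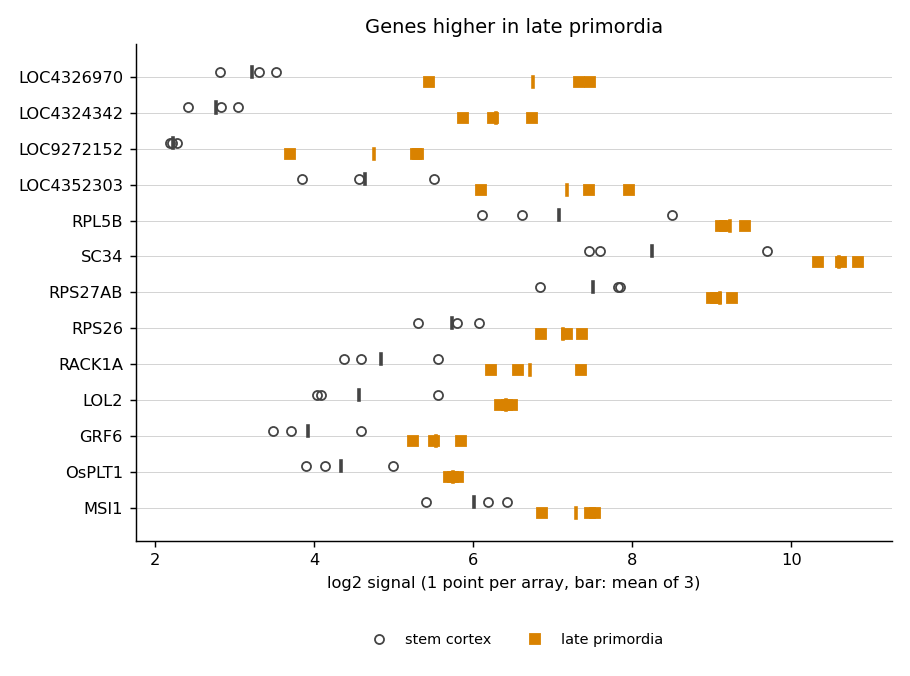
Log2 signal on each cortex array (open circles) and each late array (filled squares) for genes that rose, with bars at the means of 3 arrays. Cortex arrays lie close together in LOC4326970, LOC4324342 and LOC9272152, while for *RPL5B*, *SC34* and *LOL2* cortex replicate 1 lies nearest to the late arrays.

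Late primordia were also compared with the 2 stages before them. The differences of means use no cortex array, but cortex arrays enter the shared estimate of spread behind the standard errors and p values. No gene was called between late and early primordia (limma, smallest adjusted p = 0.124), with 1499 genes (6.2%) at an unadjusted p under 0.05, 697 higher and 802 lower in late primordia. Between late and intermediate primordia 0 genes were called as well, with 598 (2.48%) at an unadjusted p under 0.05. Each stage difference named here therefore fails the correction over all genes and is given with its standard error and adjusted p.

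Within that limit, some genes called against cortex were still at the cortex level in early primordia. LOC4326970 had 2.91, 3.38 and 3.43 in early, 5.35, 7.16 and 4.87 in intermediate and 5.44, 7.46 and 7.33 in late primordia, so that its late-minus-early difference of 3.50 (standard error 0.62, adjusted p = 0.212) was nearly the whole difference from cortex. LOC4324342 had 2.79, 3.07 and 3.32 in early and 4.43, 6.19 and 2.41 in intermediate primordia, with a late-minus-early difference of 3.23 (standard error 0.71, adjusted p = 0.374). The early arrays of both genes lay at the level of the cortex arrays, and the intermediate arrays were scattered. *CML10* (LOC4325762), a calmodulin-like calcium sensor, had 6.73, 8.12 and 7.16 in cortex, 6.72, 7.19 and 7.02 in early, 5.97, 5.98 and 6.42 in intermediate and 4.71, 5.06 and 4.69 in late primordia. It stood 2.52 below cortex (adjusted p = 0.00545) and 2.16 below early primordia (standard error 0.30, adjusted p = 0.124). Its early arrays overlapped the cortex arrays and its late arrays were below all others. *EXPA7* had 6.34, 6.09 and 6.17 in early and 5.84, 5.68 and 6.35 in intermediate primordia, and was 1.00 lower in late than in early primordia (standard error 0.17, adjusted p = 0.212).

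The means of *OsLBD3-6* and *OsTCP7* were lower at each stage than at the one before. *OsLBD3-6* had 5.07, 5.50 and 5.03 in early and 4.43, 4.87 and 5.05 in intermediate primordia, with a late-minus-early difference of -1.12 (standard error 0.21, adjusted p = 0.244). *OsTCP7* had 4.47, 6.09 and 4.94 in early and 3.88, 3.70 and 5.08 in intermediate primordia, with a difference of -1.89 (standard error 0.55, adjusted p = 0.597). In both genes the late arrays lay below all early arrays, while intermediate arrays overlapped with early ones. LOC9268957 and LOC4332342, unnamed genes called higher than in cortex (0.59 and 0.76), were also higher than in early primordia by 0.56 and 0.63 (adjusted p = 0.337 and 0.222).

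The strongest differences between stages also included genes without a called difference of late primordia from cortex. *COI1B* (LOC4338955), a receptor of jasmonate, had 4.22, 3.75 and 3.98 in cortex, 3.72, 3.71 and 3.58 in early and 4.30, 4.97 and 5.03 in late primordia, a late-minus-early difference of 1.1 (standard error 0.20, adjusted p = 0.222). LOC4349820, described as a histone H3, had 2.19, 2.12 and 2.87 in cortex, 4.53, 5.58 and 4.46 in early and 2.74, 2.20 and 2.17 in late primordia (-2.48 from early, adjusted p = 0.124). Its late arrays overlapped the cortex arrays and lay below all early arrays. LOC4337468 stood 1.70 lower in late than in early primordia and LOC4327269, described as an esterase, 1.06 lower (both adjusted p = 0.124). LOC4333095 was 0.80 higher in late than in early primordia (adjusted p = 0.153) and LOC4339208 was 0.88 lower (adjusted p = 0.124).

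Over the 388 rises, 50 were higher and 8 lower in late than in early primordia at an unadjusted p under 0.05, and over the 397 falls 2 were higher and 52 lower. The late arrays enter both the calls and these counts, so a lean of this kind is built into the choice of genes.

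**Figure D5:**
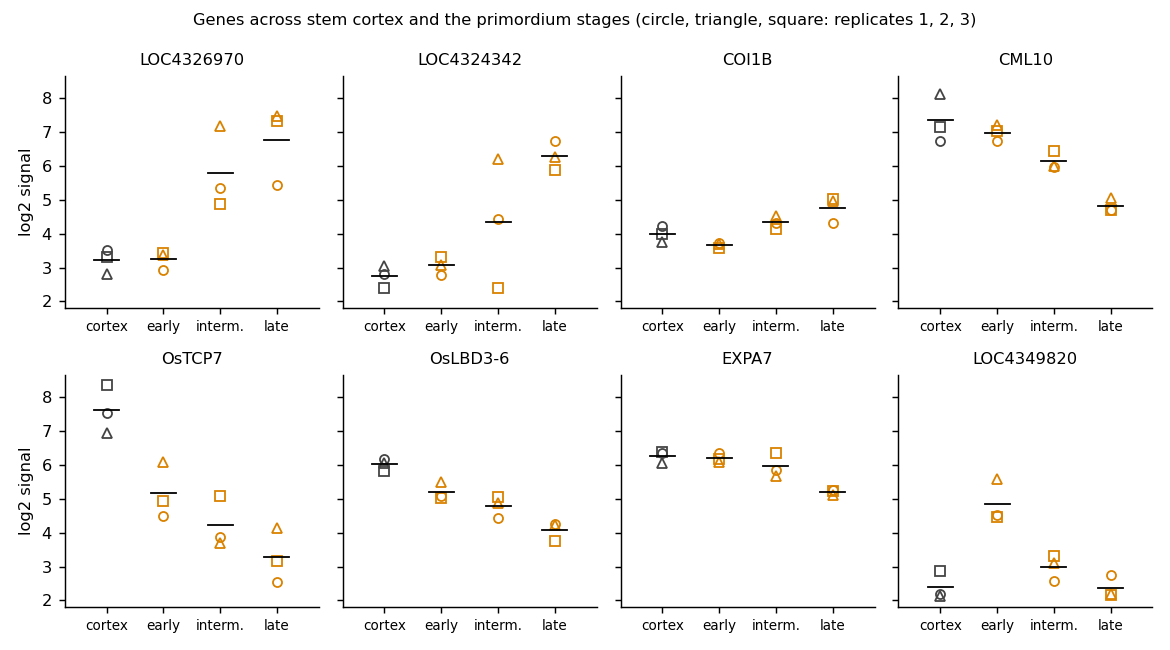
Log2 signal on all 12 arrays for 8 genes, by tissue on the x axis, with a bar at the mean of 3 arrays and a symbol for each replicate number. LOC4326970 and LOC4324342 are at the cortex level in early primordia and above it in late primordia, *CML10* and *EXPA7* are at the cortex level in early primordia and below it in late primordia, and LOC4349820 is highest in early primordia.

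Regulators known from root meristems were not uniformly high in late primordia. *OsSHR1* (LOC4343753) had 4.14, 4.55 and 5.34 in cortex, 6.12, 5.93 and 5.93 in early and 5.17, 4.41 and 4.51 in late primordia, with a log2 difference of 0.02 (standard error 0.36) from cortex and of -1.30 from early primordia (adjusted p = 0.544). *OsSCR1* (LOC4349638) had 2.73, 2.25 and 2.26 in cortex, 4.30, 4.03 and 3.65 in early and 3.33, 2.40 and 2.70 in late primordia, 0.39 from cortex (standard error 0.26) and -1.19 from early primordia (adjusted p = 0.358). The late arrays of both genes overlapped the cortex arrays and lay below all early arrays. *PSK1*, the precursor of the growth peptide phytosulfokine, had 3.98, 3.97 and 3.31 in cortex, 7.08, 7.60 and 7.34 in early and 5.97, 5.66 and 4.04 in late primordia. It stood 1.47 above cortex (adjusted p = 0.106) and 2.12 below early primordia (adjusted p = 0.374), with late replicate 3 near the cortex level.

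Of the other PLETHORA genes, *OsPLT3* (LOC4329975) had 5.76, 3.90 and 2.73 in cortex and 6.21, 6.07 and 5.84 in late primordia (1.91, adjusted p = 0.0867). No late array fell below a cortex array, but cortex replicate 1 came within 0.08 of the nearest late array. *OsPLT6* (LOC4350315) and *OsPLT5* (LOC4325035) had log2 changes of 0.73 (adjusted p = 0.186) and 0.33 (adjusted p = 0.483), and both overlapped the cortex arrays. *C3H13* (LOC4328385) stood at 0.74 (adjusted p = 0.101) and *OsMYBS60* (LOC4351379) at -1.88 (adjusted p = 0.0549). Over the 14 markers of root meristem and primordium 1 rose and 0 fell, the summed linear signal was 155 to 209 in cortex and 231 to 271 in late primordia, and the median log2 change was -0.01.

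Markers of other tissues gave few calls. Of 2 shoot meristem markers 1 fell (*OSH1*), with sums of 60.3 to 76.4 in cortex and 42.3 to 53.1 in late primordia. The 7 phloem markers (53.0 to 62.2 against 56.4 to 64.6) and the 6 markers of epidermis and cuticle (40.5 to 65.1 against 35.7 to 38.0) had 0 called. Over all 40 gene lists, 28 had a called member, 9 with rises only, 15 with falls only and 4 with both, and 12 had none. Those with none included NAC (10 genes), WRKY (6), MADS-box (31), GRAS (8) and basic leucine zipper factors (19), potassium and phosphate transporters (39) and peptide hormones (9).

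The counts rest on few arrays. When only the 6 arrays of the 2 tissues entered the fit, 0 genes rose and 1 fell. Leaving out late replicate 1, 2 or 3 left 11, 18 and 115 rises and 49, 68 and 104 falls. Leaving out cortex replicate 2 or 3 left 56 and 75 rises and 142 and 218 falls, while leaving out cortex replicate 1 gave 1547 rises and 1424 falls. Without 1 of the 6 arrays, between 370 and 387 of the 388 rises still differed by at least 1.5-fold in the same direction. Of the 397 falls, between 373 and 392 did. These genes were chosen for such a change on the same arrays, so much of this outcome was built into the choice.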

How the data were processed

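RNA of laser-microdissected tissue was hybridized to Affymetrix Rice Gene arrays, 3 per tissue. The authors deposited normalized log2 values, with the probes of each set summarized to 1 value on every array. The paper names Robust Multi-array Average, the labels name GCRMA and Affymetrix Expression Console, and which made the values is not settled. Scanner intensities were not used here. The annotation gives 24161 of 36643 probe sets 1 gene, 90 several and 12392 none, and the probe set with the highest mean was kept for each of 24160 genes. Names came from RefSeq symbols or the study's own tables. No genome of the files' build was used, so no coordinates or sequences are given. Number of arrays limits the precision.

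A group means model over all 12 arrays and all probe sets was fitted with limma 3.58.1 in R 4.3.3, with eBayes (prior degrees of freedom 2.55) and Benjamini-Hochberg adjustment over the 24160 genes. The fit was tested on simulated data. The labels' extraction protocol ties a repetition number to 1 pool of stem bases for all 4 tissues, so the numbers pair the samples. Residual correlations of late and cortex arrays of the same number were 0.01 to 0.15, and 7 of 18 same-numbered pairs of any groups exceeded 0.1. The methods name no block, so the fit has none and the block is an alternative.

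Other alternatives were the 6 compared arrays alone, quantile normalization, median centring, filters on dim probe sets, a trended or robust prior, array and group weights, other choices of probe set, cortex replicate 1 alone, the methods' threshold, leaving out arrays, and, chosen after seeing the data, a prior from probe sets of 1 gene. The members and lists were chosen with earlier results of these data known. Genes were named by a rule: the 15 largest rises and falls, the 10 largest each with a symbol, genes of the study's tables, up to 4 called members of each list (or 2 not called) and the 5 strongest late-early differences in each direction. Another 41 genes, mostly those known by a description, and a few marker genes were chosen after their values were seen. Not all genes picked in these ways are described in the text.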

Additional observations from a re-analysis of the deposited data

Results flagged for a closer look

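In 2 of the genes named in the report, late and early primordia lay on opposite sides of all cortex arrays. LOC4339208 had 3.33, 3.46 and 3.69 in cortex, 4.02, 4.11 and 4.04 in early and 3.20, 3.23 and 3.11 in late primordia, a late-minus-early difference of -0.88. *COI1B* lay below all cortex arrays in early and above them in late primordia, with a difference of 1.1. Neither difference passed the correction over all genes.

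Of the 12482 probe sets that the annotation gives no gene or several genes, and which enter no count of the report, 392 were higher and 246 lower in late primordia at the same threshold, with changes from -5.75 to 5.50 on the log2 scale.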

How the results depend on the processing

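Against 388 rises and 397 falls with the deposited values, counts of rises and falls moved beyond 1.5 times in these fits: 0 and 1 with only the 6 compared arrays, 6 and 107 with cortex replicate 1 alone, 183 and 225 with group weights, 752 and 597 with a prior from probe sets of 1 gene (an alternative chosen after seeing the data), and 1067 and 822 at the methods' threshold. For rises alone they were 157 after quantile normalization, 161 with an intensity trend, 660 with array weights and 769 above the median signal. Counts that also ask for no overlap were the same or close to these (758 above the median signal, 622 with array weights, 742 with the prior from probe sets of 1 gene, and 989 and 798 at the methods' threshold). Leaving out an array or a whole repetition gave 0 to 1547 rises and 0 to 1424 falls, with the same ranges for genes without overlap. The fit without repetition 2 called 0 genes (limma, smallest adjusted p = 0.0826), with 2605 at an unadjusted p under 0.05. Quantile normalization kept 146 of the 388 rises and 281 of the 397 falls. Under the replicate block the counts were 418 and 316, with 286 and 281 shared. Of the 133 called genes picked by the naming rule or after their values were seen, 18 lost their call. The report gives this for those it describes, and not all 133 are described there. The block changed no other call among the genes so picked. Between stages the block called 0 genes, array weights called 14 genes for late against early, and the methods' threshold 267 and, for late against intermediate, 32.

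Of the 133 called genes, 130 kept their sign in every setting, out of 24, that held them. Each late array of these genes lay beyond each cortex array, so fits that leave out or weight arrays could not turn a sign. After quantile normalization signs turned for *RPS27AA* (-0.43), *CAM1* (-0.34), *QM1* (-0.0270), and among genes not called for *OsH2B* (-0.74), LOC4335638 (-0.44), *OsSHR1* (-0.31), LOC4349820 (0.0392) and LOC4337468 (0.0125). Other turns, in genes not called, were LOC4327269 (0.0220), LOC4337468 (0.0238) and LOC4349820 (0.0450) after median centring, *OsSHR1* (-0.10) with array weights, and LOC4327269 (0.0358), LOC4337468 (0.21), LOC4349820 (0.18) and *OsPLT6* (-0.0474) against cortex replicate 1 alone. Without 1 array or repetition, LOC4327269 ranged from -0.21 to 0.14, LOC4337468 from -0.20 to 0.0629, LOC4349820 from -0.31 to 0.31, *OsH2B* from -0.27 to 0.59 and *OsSHR1* from -0.49 to 0.44. The cause was not tested. The values used here hold no background signal, so how far it limits dim genes was not tested (the median signal over all genes was 2.91).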
